A study of Mus musculus with 2 samples.

Results

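Genes that encode DNA repair enzymes and Fanconi anaemia proteins were compared between mouse haematopoietic stem cells lacking Wip1 and wild-type stem cells. The members were 51 named genes of 6 pathways, and every probe set whose only gene in the platform annotation was one of them was used. Of the 51 genes, 49 had such a probe set, with 111 probe sets in all, among 18193 genes on the array. Xrcc2, a recombination gene, and Dclre1c, the nuclease Artemis, had none and were not analysed here. A further 3 genes, Bard1, Lig4 and Nhej1, lay under the detection floor on both arrays, which left 46 members with 81 detected probe sets.

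The study hybridised total RNA of haematopoietic stem cells to an Affymetrix mouse expression array, with 1 array for Wip1 knockout animals and 1 for wild-type animals, both aged 3 months. The labels give neither the strain nor the knockout allele, and say nothing of the sort or of how many mice were pooled. Wip1, encoded by Ppm1d, is a phosphatase known to switch off the DNA damage response by removing phosphates from p53, ATM and their substrates. With a single array per genotype no test between genotypes exists, so no p-value is given and each difference is between these 2 samples.

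Repair pathways divide by the lesion they act on. Homologous recombination rebuilds a broken chromosome from the sister copy and works mainly in S and G2 phase, and the Fanconi proteins bring crosslinked DNA into that route. End joining ligates broken ends without a template and is the main route in quiescent cells, as most stem cells in adult marrow are. Whether the cells profiled here were quiescent was not measured, and most cell cycle genes were bright on both arrays, as given below. Base excision removes small damaged bases, mismatch repair corrects replication errors, and nucleotide excision removes bulky lesions such as those of ultraviolet light. Several nucleotide excision genes, among them Xpc and Ddb2, are also known as transcriptional targets of p53 in human cells. Whether the mouse genes respond to p53 in the same way was not tested, and activity of p53 was not measured here.

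The deposited values are summarised intensities on a linear scale. A probe set counted as detected when at least 1 array lay above the floor, which was that array's median (knockout, 25.9; wild type, 25.2). All differences are log2 values of the knockout minus those of the wild type, after centring all detected probe sets with a gene on 0, which took out a shift of -0.01. For this reason genes with exactly equal values on both arrays carry a difference of 0.01. A gene is given by its brightest probe set unless stated. The error that can be measured is the scatter between probe sets of the same gene, with an SD of 0.22 on the log2 scale over 5084 genes, and it holds no variation between animals or arrays. Among members with at least 2 detected probe sets the same SD was 0.21 over 22 genes.

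The targeted gene did not separate the arrays. Ppm1d read 160 against 167 in one probe set and 59.0 against 55.6 in the other (knockout first, here and below), and where the deletion lies relative to them is unknown here, so they may check nothing. All 10 stem cell markers that could be measured, among them Kit and Procr, lay above the 75th percentile on both arrays. Their differences ran from -0.66 to 0.70. Of markers with a probe set, 9 of 11 myeloid, 4 of 11 erythroid and megakaryocyte and 2 of 11 lymphoid ones also lay above it. These levels thus do not show how pure the stem cells were. Transcripts tied to sex differed, with Xist at 3778 in the knockout and 6228 in the wild type and the Y-linked Eif2s3y at 149 and 31.8.

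Most repair genes had nearly the same intensity on both arrays. Over the 46 detected members intensities ran from 25.6 to 1381 in the knockout, with a median of 129, and from 28.8 to 1740.2 in the wild type, with a median of 134. A total of 25 members lay above the 75th percentile on both arrays, and 34 of 46 (73.9%) differed by no more than the SD between probe sets, as did 66.5% of all 11440 detected genes. After centring 23 members were higher and 23 lower in the knockout, whereas by the deposited values 19 were higher, 2 equal (Fancd2 and Fancg) and 25 lower. Over all detected genes the counts went from 5724 higher and 5716 lower after centring to 5207 higher, 271 equal and 5962 lower as deposited. The median of members, -0.0030 after centring, lay beside 0.00015 for all detected genes. Across members the log2 intensities of the arrays had a Pearson's r of 0.985 (n = 46 genes of the same 2 samples). That r largely follows the wide range of intensities between genes, so it does not measure how little the members differed.

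**Figure D1:**
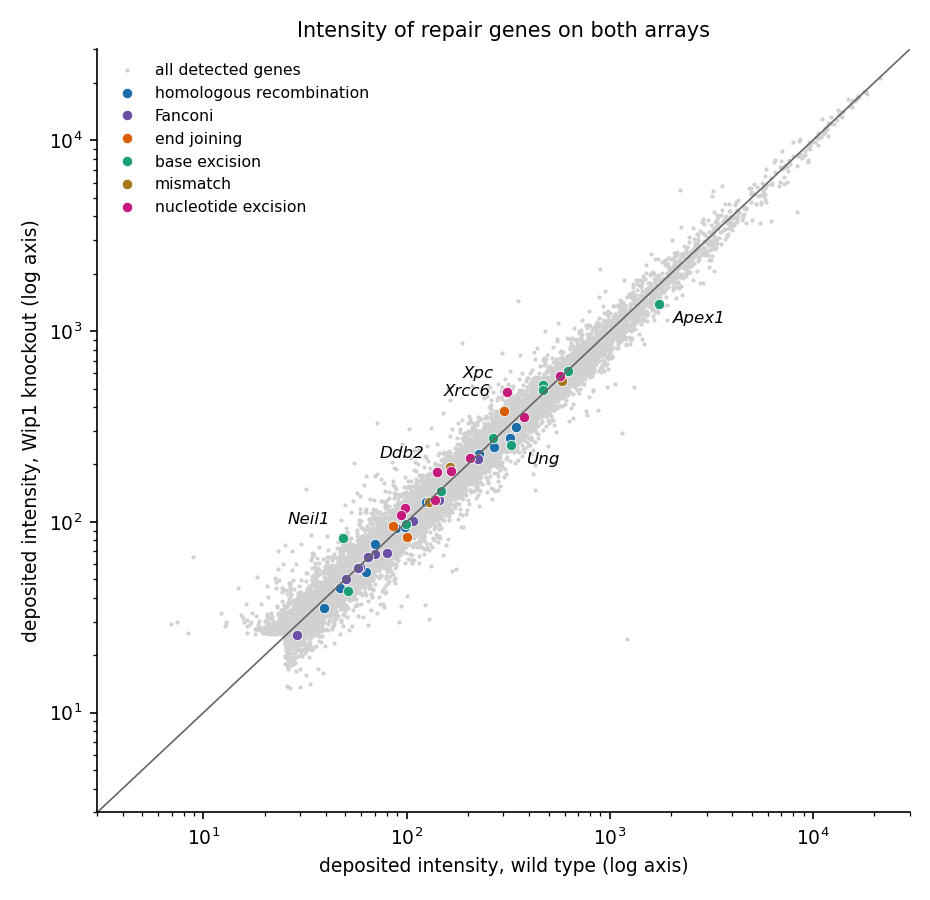
Deposited intensity in the wild type (x, log axis) against the Wip1 knockout (y, log axis), with all 11440 detected genes in grey, the 46 detected repair members coloured by pathway and the line of equality. Most members lie on the grey band's centre, Neil1, Xpc, Ddb2 and Xrcc6 lie above it, and Ung and Apex1 lie below it.

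Genes were counted at 1.5-fold and at a smaller size of 0.32 on the log2 scale, which is 25% higher or 20% lower. Neil1 and Xpc were at least 1.5-fold higher in the knockout (2 of 46 members, against 2.3% of all detected genes), and no member was 1.5-fold lower (0 of 46, against 1.55%). At the smaller size the higher members were Neil1, Xpc, Ddb2 and Xrcc6 (4 of 46, against 9.48% of all detected genes) and the only lower one was Ung (1 of 46, against 7.8%). Apex1, 1.249-fold lower, lay just outside. No member reached 2-fold. Members past these sizes were thus few, as they were over the whole array.

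**Figure D2:**
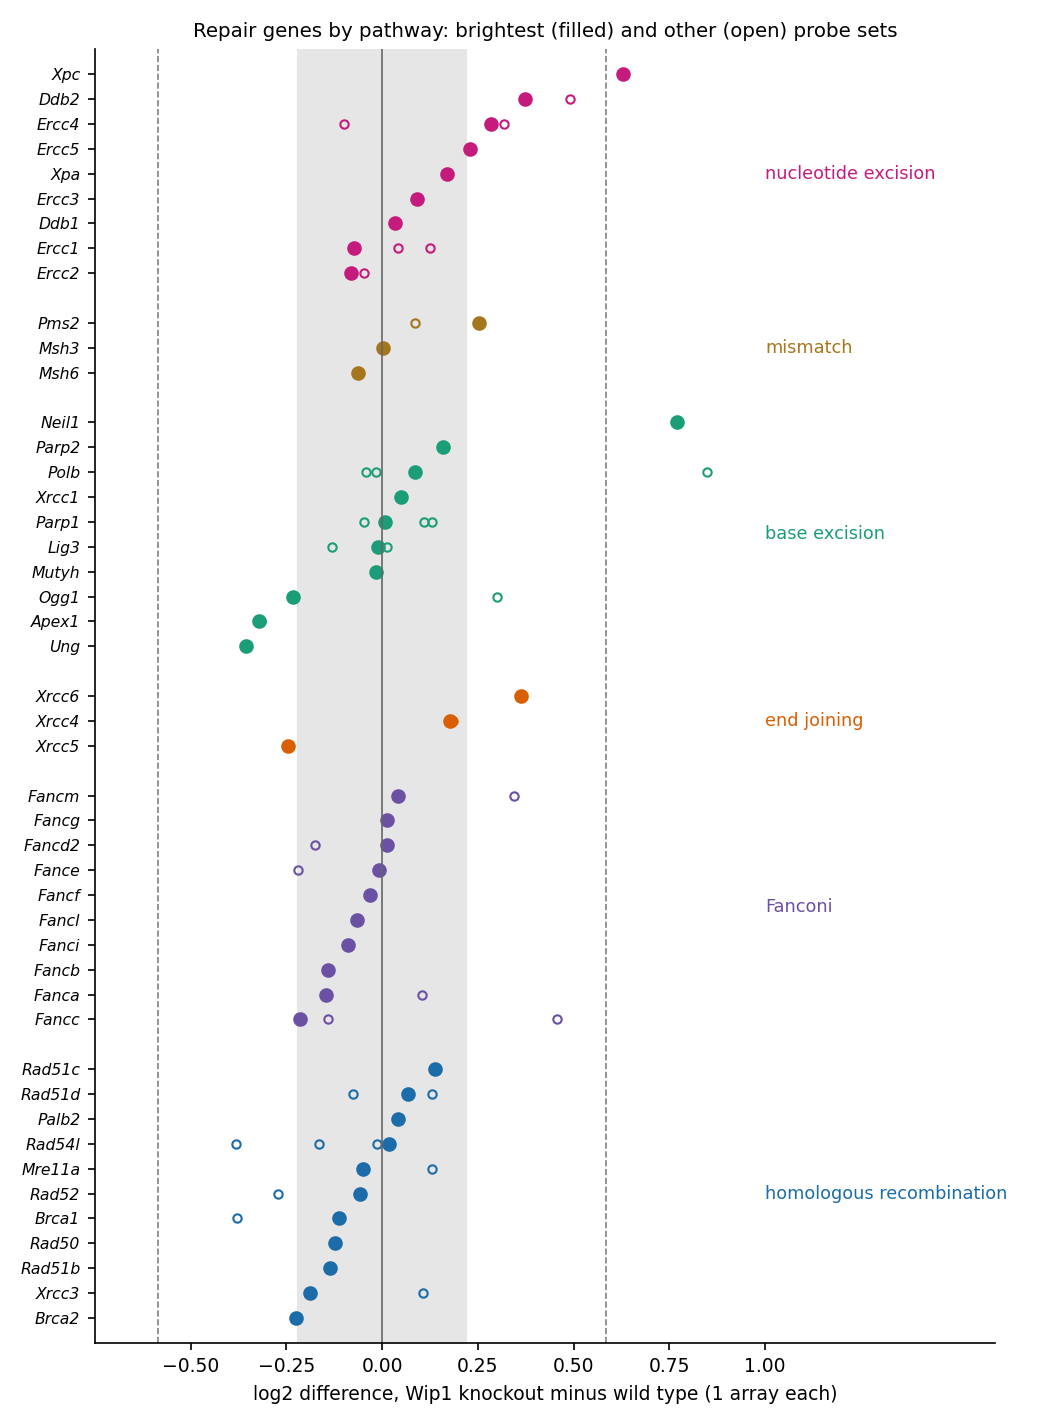
Log2 difference between knockout and wild type (x) for each detected member (y), grouped by pathway; filled points are the brightest probe set of a gene, open points its other detected probe sets, the grey band is 1 SD between probe sets (0.22) and dashed lines mark 1.5-fold. Nucleotide excision genes lie mostly right of 0, Fanconi and recombination genes mostly within the band or left of it, and open points of Polb, Ogg1 and Fancc lie apart from the filled ones.

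Nucleotide excision was the pathway whose members were most often higher in the knockout. Of 9 detected members 7 were higher and 2 lower, with the same counts by the deposited values, a median of 0.17 and a range from -0.08 to 0.63. Xpc, whose protein finds distorted DNA across the genome, had an intensity of 477 in the knockout and 311 in the wild type, 1.55-fold higher (0.63 on the log2 scale) by its only probe set. Its values on both arrays differ by a whole number, and how such values were made is not settled. Ddb2, the subunit that binds ultraviolet lesions ahead of XPC, read 182 against 142 and 131 against 93.9 in its 2 probe sets. Both of its probe sets were higher, by 0.37 and 0.49, more than the SD between probe sets. They carry the name suffixes _s_at and _a_at, and Ddb2 dropped out where such probe sets were left out. Its partner Ddb1, the adaptor of the same ubiquitin ligase, was 580.1 against 572, a difference of 0.03.

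The incision step went the same way in part. Ercc4 encodes XPF, the catalytic subunit of the nuclease that cuts on one side of the lesion, and had differences of 0.28, 0.32 and -0.10 in its 3 detected probe sets, which read 119 against 98.4, 112 against 90.5 and 70.3 against 76.0. Ercc5 encodes XPG, the nuclease of the opposite side, and was 109 against 93.9 (0.23). Xpa, the scaffold that checks the lesion, was 184 against 165 (0.17). Ercc1, the partner of XPF, was 356 against 377 in its brightest probe set (-0.07), with 0.12 and 0.04 in the other two. The helicase genes of the transcription factor TFIIH stayed near 0, with Ercc3 at 216 against 204 (0.09) and Ercc2 at 130 against 139 (-0.08, and -0.05 in its dimmer probe set). Thus 4 of the 9 genes (Xpc, Ddb2, Ercc4 and Ercc5) were higher by more than the SD between probe sets, against 17.2% of all detected genes. None of the 9 was lower by as much, against 16.2%. Ercc5 passed that SD only narrowly, at 0.231 against 0.219. It was 0.217 without centring, 0.216 under loess and 0.206 under quantile normalization, so the count depends on the setting.

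Other genes of nucleotide excision did not share that direction. Of 14 detected genes on the list of further pathway members, 4 were higher and 10 lower, with a median of -0.10. Uvssa, which acts when RNA polymerase stalls at damage, was 162 against 130 (0.34). Ercc8, which acts in that same branch, was 57.3 against 73.8 (-0.35). Cul4a, a cullin that holds DDB1, was 135 against 170 (-0.32), whereas the related cullin gene Cul4b was 447 against 441 (0.03). Rad23b, the partner of XPC, was 610.0 against 756 (-0.30). Lymphoid markers were also higher in the knockout, 8 of 10 detected, with Cd3g under the floor; by the deposited values 7 were higher, 1 (Pax5) equal and 2 lower. Their summed intensity over 11 genes was 6089 against 2676.5. Most of that sum came from Dntt, the polymerase of antigen receptor joining, at 5492 against 2228, and without it the sum over 10 genes was 597 against 448. To the precision kept, the values of Cul4a and of Dntt differ by a whole number between arrays, like those of Xpc. The part of lymphoid transcripts in the nucleotide excision values was not tested.

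Base excision genes went both ways and held the widest spread of any pathway, from -0.36 to 0.77, with 5 higher, 5 lower (4 and 6 by the deposited values, where Parp1 was lower) and a median of -0.0027. The 4 glycosylase genes, whose enzymes cut out a damaged base, ran from -0.36 to 0.77. Neil1, a glycosylase for oxidised bases, was 82.0 in the knockout and 48.5 in the wild type, 1.70-fold higher (0.77) by its only probe set. Ung, which removes uracil from DNA, was 253 against 327 (-0.36), also by a single probe set. That probe set carries the name suffix _a_at, and Ung dropped out where such probe sets were left out. Ogg1, which removes oxidised guanine, was 43.3 against 51.4 in its brighter probe set (-0.23) but 30.8 against 23.6 in the other, where the wild type lay under the floor and the difference was at least 0.30, so its direction is not settled. Mutyh, which removes adenine paired with oxidised guanine, was 96.9 against 98.9 (-0.02).

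The enzyme that follows the glycosylases was lower with close agreement between probe sets. Apex1 encodes the endonuclease that nicks the strand at the site left empty by a glycosylase. Its 3 probe sets read 1381 against 1740.2, 853 against 1073 and 609 against 769.8, differences of -0.32, -0.32 and -0.33. All were lower by more than the SD between probe sets. The brighter ones carry the name suffix _x_at, and only the dimmest (-0.33) lacks such a suffix.

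Genes of gap filling and strand break sensing were close to equal on both arrays. Parp1, which senses strand breaks, had differences of 0.01, -0.05 and 0.11 in its 3 brightest probe sets, and Parp2 was 521 against 471 (0.16). The scaffold gene Xrcc1 was 275 against 268 (0.05), and its ligase partner Lig3 was 146 against 148 (-0.01). Polb, the gap-filling polymerase, was 491 against 467 in its brightest probe set (0.08) and near 0 in 2 more (-0.02 and -0.04). A further Polb probe set read 87.2 against 48.8, 0.85 higher, and stood apart from those 3. Among the other base excision genes 6 of 10 were higher, with a median of 0.10, and Mbd4, a glycosylase for mismatched thymine, was 210 against 128 in its brightest probe set (0.73) with 0.07 and 0.26 in its others.

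The stretches upstream of the members that differed most and have an entry in the RefSeq promoter table (assembly GRCm38.p6) are shown to let their sequence be compared; 43 members had an entry. Each is the 250 bases before the annotated start, read in the direction of transcription. Capitals mark exact matches, on either strand, to the letters known as E2F sites (TTTCCCGC or TTTGGCGC), ETS sites (CCGGAAGT), NF-Y sites (CCAAT), SP1 sites (GGGCGG), the NRF1 core (GCGCATGC), CREB sites (TGACGTCA) and E-boxes (CACGTG). The Neil1 stretch lies on the minus strand at chr9:57148306-57148555, and those of Ung and Apex1 on the plus strand at chr5:114130185-114130434 and chr14:50924699-50924948.
Neil1: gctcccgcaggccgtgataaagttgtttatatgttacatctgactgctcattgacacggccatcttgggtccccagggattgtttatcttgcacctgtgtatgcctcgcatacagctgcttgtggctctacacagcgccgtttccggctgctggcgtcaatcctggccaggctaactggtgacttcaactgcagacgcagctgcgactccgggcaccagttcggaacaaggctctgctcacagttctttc
Ung: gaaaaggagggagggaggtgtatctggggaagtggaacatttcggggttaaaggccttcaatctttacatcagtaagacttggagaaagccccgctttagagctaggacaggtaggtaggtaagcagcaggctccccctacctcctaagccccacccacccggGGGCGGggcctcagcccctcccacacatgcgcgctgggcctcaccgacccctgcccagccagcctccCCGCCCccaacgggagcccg
Apex1: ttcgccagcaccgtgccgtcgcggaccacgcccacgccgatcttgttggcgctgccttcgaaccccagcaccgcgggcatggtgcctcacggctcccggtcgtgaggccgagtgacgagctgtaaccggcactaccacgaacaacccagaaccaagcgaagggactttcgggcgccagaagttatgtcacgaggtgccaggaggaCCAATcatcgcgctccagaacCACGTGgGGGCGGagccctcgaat
No match was found in the Neil1 stretch, 2 SP1 matches were found in that of Ung, and an NF-Y, an E-box and an SP1 match were found in that of Apex1, none overlapping another. Counting any entry of a gene, 67.4% of members with one held the SP1 letters (45.8% of 17492 protein-coding genes), 53.5% those of NF-Y (39.5%), 9.3% TTTCCCGC (1.35%), 2.33% TTTGGCGC (0.595%), 11.6% the NRF1 core (3.32%), 11.6% an E-box (7.61%), 6.98% the ETS letters (4.26%) and 4.65% those of CREB (2.2%). The 4 genes with TTTCCCGC were Bard1, Brca2, Fancg and Xrcc6. Median GC content was 58.4% in members and 55.6% in protein-coding genes. These are matches of letters, and binding was not measured.

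End joining was represented by 3 detected genes, and the partners of its first step went opposite ways. Xrcc6 and Xrcc5 encode Ku70 and Ku80, which form the ring that slides onto a broken end. Xrcc6 was 383 in the knockout and 300.3 in the wild type (0.36), and Xrcc5 was 83.5 against 100 (-0.25), each by the only detected probe set. Xrcc4, the scaffold of the end-joining ligase, was 95.6 and 71.7 against 85.4 and 63.7 in its 2 probe sets (0.18 in each). The ligase gene Lig4 read 7.05 on both arrays, and the brighter probe set of Nhej1, which encodes XLF, read 23.4 against 24.3, all under the floor. Of 5 other detected end-joining genes 2 were higher and 3 lower, with Poll, a gap-filling polymerase, at 70.7 against 47.2 (0.60).

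The Xrcc6 stretch before its annotated start, on the plus strand at chr15:82016119-82016368, held 3 SP1 matches and 1 E2F match, and is shown because Xrcc6 differed most among the end-joining genes.
Xrcc6: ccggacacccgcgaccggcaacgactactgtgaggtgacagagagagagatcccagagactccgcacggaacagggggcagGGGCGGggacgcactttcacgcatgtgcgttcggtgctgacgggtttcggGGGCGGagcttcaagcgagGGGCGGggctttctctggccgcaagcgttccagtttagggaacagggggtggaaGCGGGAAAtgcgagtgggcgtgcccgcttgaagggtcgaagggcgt

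Homologous recombination genes lay close to 0 and slightly more often below it. Of 11 detected members 4 were higher and 7 lower, with a median of -0.06 and a range from -0.22 to 0.14, and none reached the smaller size of 0.32. Brca2, a central mediator of recombination, was 275 against 324 (-0.22), the only member of the pathway (1 of 11) beyond the SD between probe sets. It was -0.20, inside that SD, under quantile normalization and under loess. The only Brca2 probe set carries the suffix _a_at, and Brca2 dropped out where such probe sets were left out. Palb2, which tethers BRCA2 to BRCA1, was 127 against 125 (0.04). Brca1, the ubiquitin ligase that promotes end resection, was 247 against 270 (-0.11), and its dimmer detected probe set read 34.9 against 45.8 (-0.38). Its partner Bard1 read 18.5 against 25.2 by its only probe set, under the floor on both arrays.

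Rad51b, Rad51c, Rad51d and Xrcc3, whose proteins act together in recombination, went in different directions. Rad51c was 76.3 against 70.0 (0.14), Rad51d 92.4 against 88.9 (0.07) and Rad51b 35.2 against 39.1 (-0.14). Xrcc3 was 54.8 against 63.1 in its brighter probe set (-0.19) and 49.6 against 46.6 in its other (0.11). Rad54l, the motor that helps strand invasion, was 228 against 227 (0.02) in its brightest probe set, while a dimmer one read 96.7 against 127 (-0.38). Rad52, an annealing factor, was 44.8 against 47.0 in its brighter probe set (-0.06) and 26.2 against 32.0 in its other (-0.27). The end-processing genes Mre11a and Rad50 were 94.5 against 98.7 (-0.05) and 315 against 346 (-0.12). A dimmer Mre11a probe set went the other way, at 76.1 against 70.2 (0.13). None of the brightest probe sets of these genes differed by more than the SD between probe sets.

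By their brightest probe sets, Fanconi genes were the most uniform of the larger pathways. Of 10 detected members 1 was higher, 2 were equal and 7 were lower by the deposited values, and 3 were higher and 7 lower after centring, with a median of -0.05. All 10 lay within the SD between probe sets by the brightest probe set, from -0.22 to 0.04, as did 66.5% of all detected genes. Fancc lay at the edge of that SD. Of the core complex, which acts as a ubiquitin ligase, Fancc was 68.5 against 80.2 (-0.22), Fanca 130 against 145 (-0.15), and Fancl, its catalytic subunit, 213 against 225 (-0.07). Fance (57.9 against 58.8) and Fancf (67.6 against 69.8) differed by -0.01 and -0.03. The dimmer probe set of Fance read 26.2 against 30.8 (-0.22). That of Fanca read 26.9 against 24.1, with the wild type under the floor, so the difference was at least 0.10. Fancg was listed at 57.5 on both arrays, and Fancm, the translocase that finds stalled forks, was 65.7 against 64.4 (0.04). Fancb, an X-linked gene, was 25.6 against 28.8 and under the floor in the knockout, so its -0.14 is a bound.

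The substrates of the core complex were equally close. Fanci was 101 against 108 (-0.09), and Fancd2 was listed at 50.1 on both arrays by its brightest probe set, with 42.2 against 48.1 (-0.18) in another. Dimmer probe sets of Fancc (58.7 against 43.2, 0.46 higher) and Fancm (36.9 against 29.4, 0.34 higher) stood apart from the brighter ones of those genes. Other recombination genes were lower in 11 of 18 cases (median -0.10), with Eme1, a nuclease subunit, at 83.2 against 59.9 (0.49), and other Fanconi genes in 4 of 5 (median -0.09). S phase genes were lower too, 15 of 18 detected, with a median of -0.17 and a summed intensity over 19 genes of 24959 against 27920.5. G2 and M phase genes had a median of -0.05 over 14. On both arrays 17 of 19 S phase genes and 14 of 14 G2 and M phase genes lay above the 75th percentile. The part of cell cycle state in the recombination and Fanconi values was not tested.

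**Figure D3:**
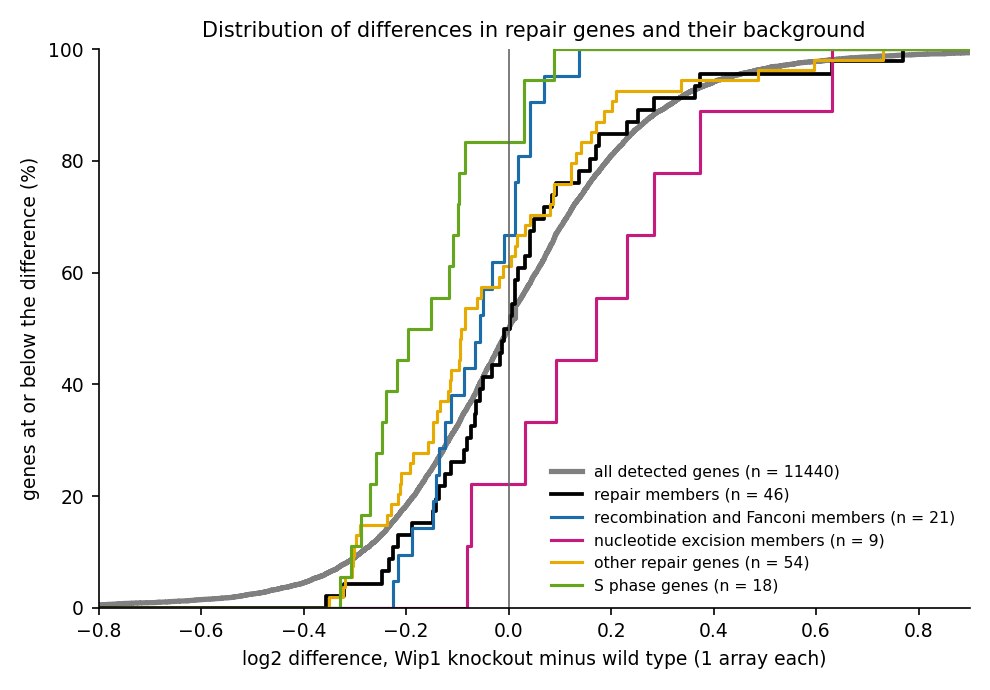
Cumulative share of genes (y, %) at or below each log2 difference (x) for all detected genes, the repair members, 2 subsets of them, the other repair genes and S phase genes. The curve of the members follows that of all genes near 0, the curve of nucleotide excision members lies to the right (median 0.17), and those of other repair genes (-0.09) and S phase genes (-0.17) lie to the left.

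Mismatch repair had 3 detected members. Msh6 and Msh3, which pair with the same partner to recognise small and larger mismatches, were 551 against 581 (-0.06) and 128 against 129 (0.0021). Pms2, the endonuclease subunit, was 194 against 165 in its brightest probe set (0.25) and 37.1 against 31.3 in the next (0.26), both higher by more than the SD between probe sets. Its dimmest detected probe set was higher by at least 0.09.

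Genes whose proteins form a complex were compared as pairs, since their differences share both arrays. Of 13 pairs 10 had both genes detected, and in 4 the differences of the partners lay further apart than 0.31, the SD expected of a difference between single probe sets. Of all pairs of detected genes 35.8% lay as far apart, so the 4 of 10 is near the share over all pairs. The Ku genes Xrcc6 and Xrcc5 were furthest apart, by 0.61. Ercc4 exceeded Ercc1 by 0.36, Ddb2 exceeded Ddb1 by 0.34 and Rad51c exceeded Xrcc3 by 0.33. Other partners lay closer, from 0.06 for Xrcc1 and Lig3 to 0.27 for Palb2 and Brca2. The pairs of Ercc4 and Ercc1 and of Rad51c and Xrcc3 hold a gene whose own probe sets differ in sign.

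**Figure D4:**
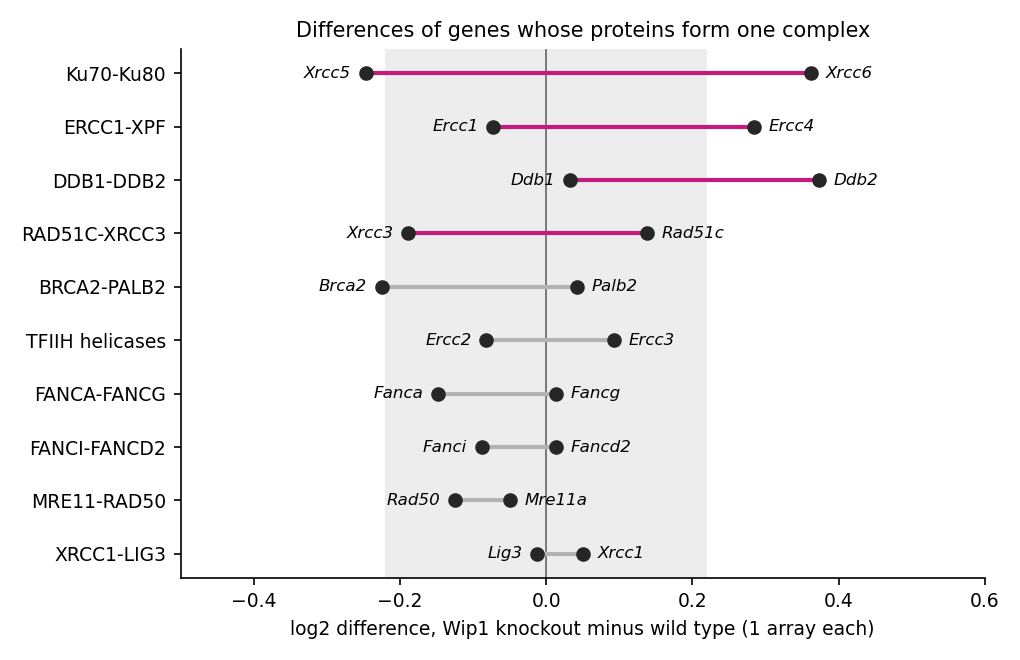
Log2 differences between knockout and wild type (x) of both genes of each pair (y), joined by a line; coloured lines mark the 4 pairs further apart than 0.31, and the grey band is 1 SD between probe sets (0.22). The Ku pair spans from -0.25 to 0.36, whereas Lig3 and Xrcc1 nearly coincide.

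Members near the targeted locus did not stand out. Ppm1d lies on chromosome 11 (RefSeq gene order, GRCm38.p6), which also carries 6 members, with differences from -0.12 to 0.14. In the order of protein-coding genes, Rad51c follows Ppm1d with 20 genes between, and Rad51d and Lig3 precede it with 47 and 49 genes between. Of the other repair genes only Brip1, a Fanconi helicase gene, was placed in this order. It follows Ppm1d with 3 genes between and was 49.7 against 50.5 (-0.01). Elsewhere, Parp2 (0.16) and Apex1 (-0.32), with 3 genes between them on chromosome 14, differed in direction. Ercc1 (-0.07) and Ercc2 (-0.08) on chromosome 7 were both slightly lower, and Xrcc4 (0.18) and Msh3 (0.0021), with 9 genes between them on chromosome 13, were both above 0 after centring, Msh3 by less than the shift taken out.

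How far the pathway values hold was read from probe sets and from other processing. Of 22 members with several detected probe sets, 9 (40.9%) had them all on one side of 0, against 56.6% of 5084 genes on the array. Neil1, Xpc, Ung, Xrcc6 and Xrcc5 each rest on 1 detected probe set, whereas Ddb2, Apex1, Xrcc4 and Pms2 had the same direction in every detected probe set. The nucleotide excision median stayed between 0.12 and 0.18 under every alternative run, and the medians of recombination (-0.10 to -0.03) and Fanconi genes (-0.09 to -0.04) kept their sign. The median of end joining, with 3 genes, ran from 0 to 0.38.

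**Figure D5:**
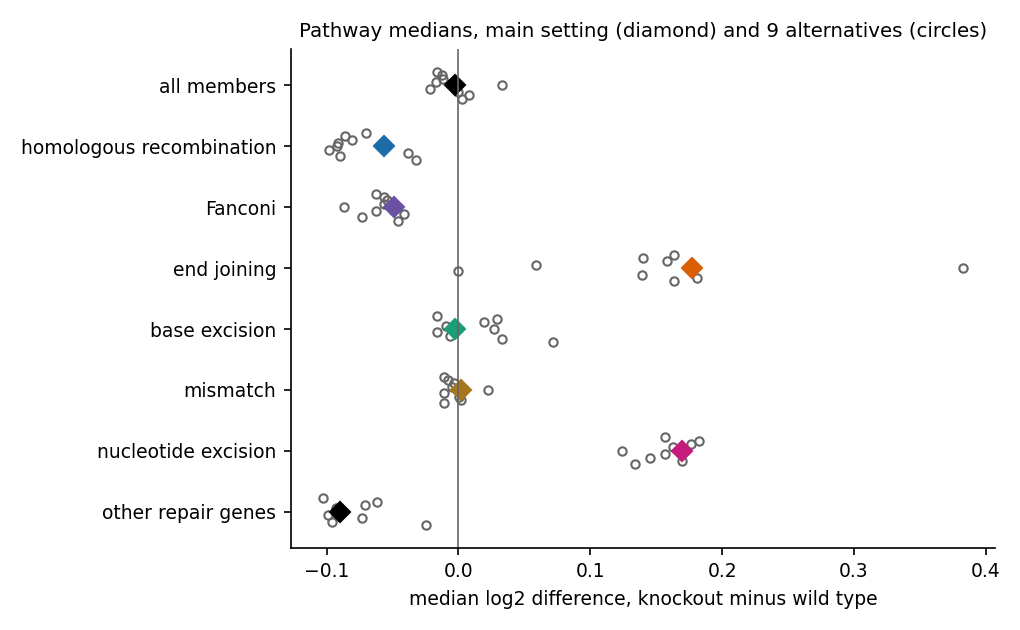
Median log2 difference (x) of all members, each pathway and the other repair genes (y), with the main setting as a diamond and 9 alternatives as circles. Nucleotide excision stays right of 0 (0.12 to 0.18), recombination and Fanconi stay left of it, and end joining spreads from 0 to 0.38.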

How the data were processed

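Total RNA of haematopoietic stem cells was measured on 1 array per genotype. The table deposited by the authors holds linear summarised intensity values of 45037 probe sets. The submitters' processing notes name MAS5, without a version, and say nothing more of scaling. On both arrays 2535 probe sets (5.63%) hold the same value, and in a further 802 (1.78%) the values differ by a whole number within 1e-05, Xpc, Parp2, Msh6 and Msh3 among them, so how the intensities were made is not settled.

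Genes were assigned from the platform annotation (34945 probe sets with 1 gene, 932 with several, 9160 with none, the last 2 kinds left out). Intensities were converted to log2, centred and floored at each array's median in Python 3.11.15 with pandas 2.3.3, and each gene was taken from its probe set with the highest mean log2 intensity. Under the floor, a difference is a bound. Members, pathway lists, partner pairs and marker lists were chosen with earlier results of these data known. Every member is named; the 3 largest differences per pathway, members past 1.5-fold, partner pairs and members on the chromosome of Ppm1d are given with values, and of other repair genes the 3 largest (Mbd4, Poll and Eme1). The other repair genes numbered 67, of which 54 were detected, with a median of -0.09. Uvssa, Ercc8, Cul4a, Cul4b, Rad23b and Brip1 were named after their values were seen. Marker medians were 0.03 (stem cell), 0.22 (lymphoid), -0.02 (myeloid) and -0.28 (erythroid and megakaryocyte). The procedure was tested on simulated data, with changes planted in bright genes only and larger than most differences given here. That test does not show that small differences or those of dim genes are recovered. Levels of different probe sets are not compared. The number of arrays limits the precision. Some items are not reported here.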

Additional observations from a re-analysis of the deposited data

How the results depend on the processing

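Of 72 pathway medians under alternatives, 67 moved by less than the probe set SD divided by the square root of the number of genes, and of 388 single-gene values 386 moved by less than that SD; neither Neil1 nor Xpc, the genes past 1.5-fold, changed sign. The rest follow. With the floor at the 75th percentile, which left 26 members and dropped Neil1, the median of all members was 0.033, that of end joining 0.38 (Xrcc6 alone), and 1 member was 1.5-fold higher. Without a floor the end-joining median was 0 over 5 genes, Lig4 and Nhej1 included. With the floor added as an offset, which shrinks differences, 0 members were 1.5-fold higher, Neil1 at 0.55 and Xpc at 0.58. With probe sets of the suffixes _s_at, _x_at and _a_at left out the base excision median was 0.071 over 7 genes, and that of other repair genes -0.024 over 45; Ogg1 was 0.29 there and 0.03 as the median of its probe sets. At 0.32 on the log2 scale 4 members were higher and 1 lower, and at 2-fold 0 were higher. Quantile normalization, loess, no centring and a floor at the 25th percentile left 2 members higher and 0 lower. With 1 array per genotype no array can be left out. No paired analysis was possible because each genotype has a single array.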

Other observations

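Some dimmer probe sets of repair genes differed more than the brightest one, and all of these were picked with their values in view. The Polb probe set that read 87.2 in the knockout and 48.8 in the wild type had a larger difference (0.85) than any brightest probe set of a member. Dimmer probe sets of Fancc (0.46) and Fancm (0.34) were higher, and those of Brca1 (-0.38), Rad54l (-0.38) and Rad52 (-0.27) were lower. Among base excision genes, the glycosylase genes Neil1 (0.77) and Mbd4 (0.73, with 0.07 and 0.26 in its other probe sets) were higher, whereas Ung (-0.36) and the endonuclease gene Apex1 (-0.32) were lower. Among nucleotide excision genes, Ddb2 (0.37) was higher and the cullin gene Cul4a (-0.32), which encodes part of the same ubiquitin ligase, was lower. Ddb1 (0.03) and the related cullin gene Cul4b (0.03) were near 0.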
